A study of Mus musculus with 9 samples.

Results

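The effect of adding IFN-α to R848 was measured by RNA sequencing in primary mouse microglia, in 3 libraries treated with R848 alone and 3 libraries treated with R848 and IFN-α together. These are 6 of the 9 libraries of the series, chosen by their treatment labels, and every gene in the files entered the comparison. The labels describe the same culture and handling for both groups, but they disagree on the model of the sequencing instrument. Mixed glia were grown from whole brains of ICR mice aged 3 days, and the microglia shaken off them were plated for 24 h and treated for 4 h. R848 was given at 1 µM and IFN-α at 100 U/ml. No genetic change or transgene is named in the labels, the 3 remaining libraries received IFN-α alone, and a control group named in the series' description is not analysed here. Nothing in the labels ties replicates to separate cultures or litters, and the p-values below therefore reflect only library-to-library spread, possibly technical.

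R848, or resiquimod, is a small molecule that activates the endosomal RNA receptor TLR7 in mice, which signals through the adaptor MyD88 to NF-κB and MAP kinases. IFN-α is a type I interferon. It binds a receptor of Ifnar1 and Ifnar2, and the kinases Jak1 and Tyk2 then activate STAT proteins, which with Irf9 bind a DNA element called ISRE and as dimers bind an element called GAS. Microglia, the resident macrophages of the brain, sense viral RNA through TLR7 and both make and respond to type I interferon.

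Gene counts ran from 2817772 to 3298567 per R848 library and from 2795385 to 6005578 per combined library, of which replicate 3 was the deepest. The correlation of log2 CPM (counts scaled to library size, as edgeR defines CPM) across genes was 0.967 or more within groups and 0.861 to 0.874 between them. Reads of Rn45s, the ribosomal RNA precursor, made up 14.8% to 22% of gene counts with R848 and 13.3% to 21.0% with both agents. All 16 microglia and macrophage markers were tested, with summed levels of 4241 to 4849.9 CPM (R848) and 4607 to 5245 CPM (combined). Of these, 4 were called higher and 4 lower. Under every scaling described below, Aif1, C1qb and P2ry12 were higher and Csf1r, Cx3cr1, Tyrobp and Tmem119 lower. Tmem119, a marker of resting microglia, was at 3.7 ± 0.274 CPM under R848 against 0.38 ± 0.389 CPM combined (mean ± SD, n = 3, as for such values below). P2ry12 was at 2.34 ± 0.544 CPM under R848 against 8.84 ± 3.44 CPM combined. Astrocyte markers were also present. Of 11 tested, 10 were called higher and none lower, 3 of them under every scaling described below (Aqp4, Slc1a2 and Aldoc), and their summed level was 1432 to 1695 CPM (R848) and 2354 to 3375 CPM (combined). The endothelial markers Cdh5 and Flt1 also rose, at a summed 16.9 to 20.5 and 38.5 to 54.1 CPM for the list, while Emcn had no count in any library. Of 14 markers of other leukocytes 2 were tested and 7 had no count in any library. In bulk RNA, fewer cells of a type and less RNA per cell cannot be told apart, and the part these other cells had in the results below was not tested.

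IFN-α on top of R848 both raised and lowered many genes, and the rises were larger than the falls. Of 10618 genes tested, 1995 (18.8%) were called higher and 1709 (16.1%) lower with both agents than with R848 alone (edgeR quasi-likelihood F test, Benjamini-Hochberg adjusted p under 0.05). Calls for small changes depended on how the libraries were scaled, so a gene is said below to have risen or fallen only where the test called it in the same direction under 5 scalings: TMM, RLE and upper-quartile factors, library totals alone, and TMM after removing Rn45s. By that rule 1147 genes rose (10.8%) and 1602 fell (15.1%), and these percentages are the background for every count of list members below. The rule was harder on rises than on falls. Library totals kept 1147 of the 1995 higher TMM calls, while RLE factors, the strictest for falls, kept 1602 of the 1709 lower ones. The numbers of rises and falls in the lists below carry that tilt. At least a 2-fold change was seen in 910 of the rises (8.57% of genes tested) and 391 of the falls (3.68%). At least a 4-fold change was seen in 375 rises and 33 falls, and at least an 8-fold change in 214 rises and 5 falls. The median log2 fold change was 1.49 over the rises and -0.73 over the falls.

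**Figure D1:**
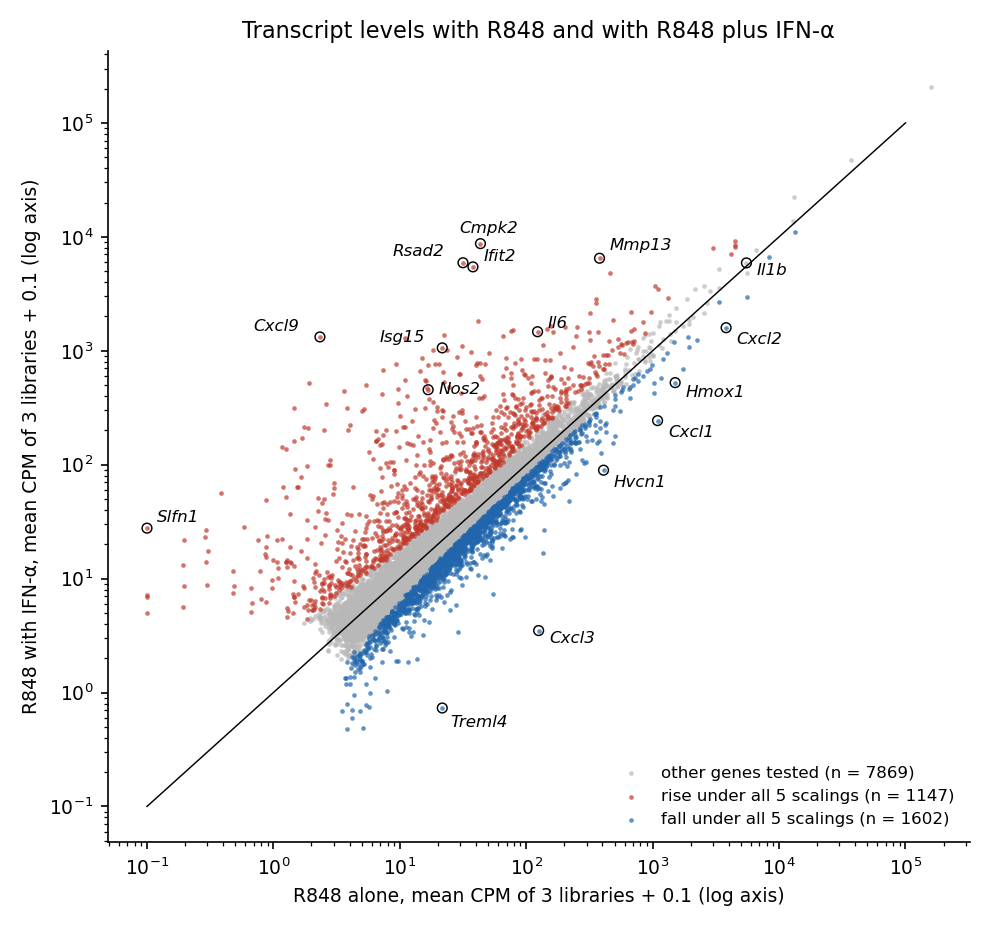
Mean level of each tested gene with R848 alone (horizontal axis) and with R848 plus IFN-α (vertical axis), in CPM plus 0.1 on log axes, with the line of equal levels. Red points are the 1147 genes that rose and blue points the 1602 that fell under all 5 scalings. The red cloud reaches far above the line except at the highest levels, while most blue points lie close below it, with Cxcl3 and Treml4 the farthest.

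The rising genes came to fill a large share of each library. They held 9.79% to 10.9% of gene counts with R848 and 25.4% to 29.6% with both agents, while the falling genes went from 16.8% to 17.9% down to 8.07% to 9.31%. The 20 genes that gained most CPM, chosen after their values were seen, held 3.02% to 3.23% with R848 and 7.79% to 9.55% with both. Their order began with Cmpk2, Mmp13, Rsad2 and Ifit2. TMM factors were 1.08 to 1.20 in R848 libraries and 0.855 to 0.916 in combined libraries, and the median log2 fold change of all genes was -0.03 with TMM, -0.02 with RLE, -0.17 by the upper quartile and -0.42 by library totals, a shift of -0.39 from TMM. With library totals alone 1148 genes were called higher and 4895 lower, and with upper-quartile factors 1630 and 2698, so higher calls made up 19.0% and 37.7% of all calls against 53.9% with TMM. No gene called higher with TMM turned lower under another scaling. Fold changes below are with TMM factors, and a value in parentheses with ± is the log2 fold change with its SE. Every gene said to rise or fall had an adjusted p under 0.05 (edgeR) under each scaling.

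**Figure D2:**
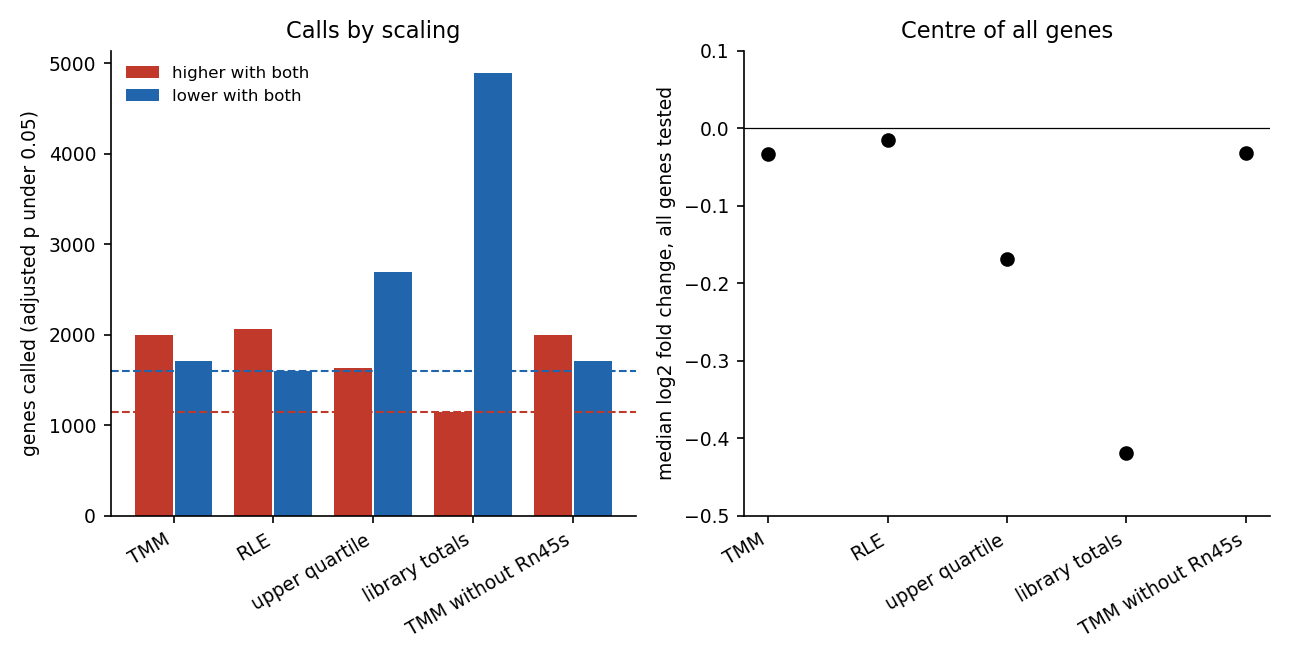
Left, genes called higher (red) and lower (blue) with both agents under each scaling, with dashed lines at the 1147 rises and 1602 falls called under all 5. Right, the median log2 fold change of all 10618 genes tested under each scaling. Library totals alone gave the fewest higher calls (1148), the most lower calls (4895) and the lowest median (-0.42).

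The 15 largest rises included the antiviral genes Rsad2, Mx1 and Ifit2, the chemokine gene Cxcl9, the protease inhibitor genes Serpina3f and Serpina3g, and genes for the receptor NKG2D and the death ligand TRAIL. Cxcl9, which encodes a chemokine for T cells, had 2.81, 2.46 and 1.44 CPM under R848 and 1472, 1273 and 1222 CPM under the combination. The groups did not overlap, and the log2 fold change was 9.19 ± 0.17 (SE; adjusted p = 8.70e-22, edgeR). Rsad2, encoding the antiviral enzyme viperin, had 33.4, 33.8 and 27.3 CPM under R848 and 6267, 5877 and 5631 CPM under the combination (7.55 ± 0.12). Its neighbour Cmpk2 encodes a mitochondrial nucleotide kinase and had 44.1, 40.5 and 45.4 CPM under R848 and 9154, 7917 and 9083 CPM under the combination (7.65 ± 0.12). Neither gene's groups overlapped. Slfn1, a Schlafen gene, had 0 counts with R848 alone and 277 in the combined group, at least 92.4-fold higher when the R848 group is set at a floor of 3 counts in all. Pydc4, with 0 and 79 counts, was at least 26.4-fold higher by the same floor. Klrk1, which encodes the activating receptor NKG2D, had 1 and 228 counts, the 1 in R848 replicate 3, a ratio of 228 (95% counting interval 40.5 to 9052, for counting error only). The remaining large rises were Serpina3g (8.13 ± 0.23), Serpina3f (7.81 ± 0.19), Ifit2 (7.17 ± 0.14), Slfn4 (7.07 ± 0.20), Ifit1bl1 (7.0 ± 0.21), Tnfsf10 (6.98 ± 0.18), Pyhin1 (6.98 ± 0.16), Mx1 (6.91 ± 0.13) and Tgtp2 (6.88 ± 0.23). For 3 of them leaving out 1 R848 library moved the fold change by more than 1.5 times, to log2 values of 9.44 for Serpina3g without R848 replicate 3, 7.72 for Slfn4 without replicate 1 and 7.5 for Tgtp2 without replicate 2. Serpina3f and Serpina3g, Tgtp1 and Tgtp2, Pydc3 and Pydc4, and the Schlafen and Ifit genes have close copies, so reads may have been split or lost among them and their counts are uncertain.

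**Figure D3:**
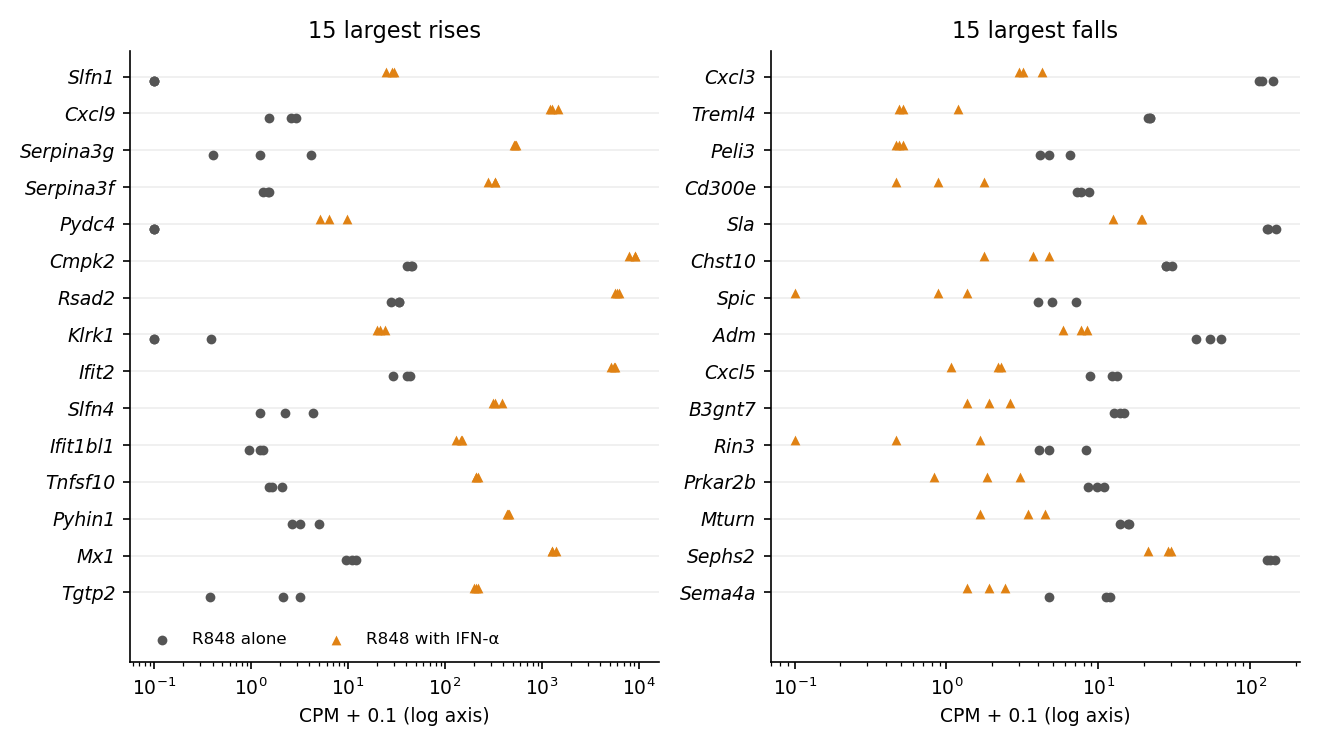
CPM plus 0.1 on a log axis in each of the 3 R848 libraries (grey circles) and 3 combined libraries (orange triangles) for the 15 largest rises and 15 largest falls with at least 5 CPM in the higher group. The groups do not overlap for any of the 30 genes. Slfn1 and Pydc4 had no count with R848 alone.

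Interferon-stimulated families rose almost as whole groups. Of the IFIT and OAS genes, whose products bind viral RNA or make the second messenger for RNase L, 15 of 15 rose and none fell (median log2 fold change 4.94), against 10.8% and 15.1% of all genes. Of 25 antiviral effectors 22 rose and none fell (median 3.21), and Ifi27 (50.9 ± 3.29 CPM under R848 against 56.7 ± 6.03 CPM combined) and Ifitm1 (3.87 ± 1.1 CPM under R848 against 5.02 ± 0.905 CPM combined) were not called. All 6 genes for conjugating the ubiquitin-like protein ISG15 rose (median 4.02). Isg15 itself had 21.9, 21.8 and 21 CPM under R848 and 1018, 1067 and 1095 CPM under the combination, with no overlap (5.62 ± 0.12). Usp18, the protease that removes ISG15 and restrains the interferon receptor, went from 18.1 to 1013 CPM (5.81 ± 0.14), and the E1 enzyme gene Uba7 went from 21.3 to 264 CPM. Mx2, a cytoplasmic antiviral GTPase, rose by 5.9 ± 0.17, and Oasl1, which restrains translation of Irf7 mRNA, by 5.89 ± 0.19. Over the 7 lists of these families together with the GTPases, Schlafens, sensors and MHC genes below, 120 of 137 members tested rose and 1 fell, and they made up 81 of the 214 genes that rose at least 8-fold.

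The guanylate-binding proteins and immunity-related GTPases, which coat and disrupt vacuoles that hold pathogens, rose in 19 of 19 cases (median 4.57). Tgtp2 had 0.281, 3.07 and 2.01 CPM under R848 and 221, 198 and 209.9 CPM under the combination, and Iigp1 had 3.37, 8.29 and 10.1 CPM under R848 and 664, 685 and 694 CPM under the combination. No R848 library reached a level of the combined group for either gene. Schlafen and PARP genes rose in 17 of 22 cases, and none fell (median 2.87, and the same with Slfn1 at its bound). Among them Slfn9 rose by 5.08 ± 0.12 and Slfn3 by 4.35 ± 0.22. The 5 members not called were the DNA repair enzymes Parp1 (log2 fold change -0.56) and Parp2 (-0.20), the tankyrases Tnks (0.31) and Tnks2 (0.08), and Parp6 (-0.14). Parp2, Parp6 and Tnks2 were called lower with library totals alone (-0.59, -0.53 and -0.31), and Parp1 was called lower by library totals or without combined replicate 3 (-1.13 to -0.95). Tnks was called higher with RLE factors, in the fit of all 9 libraries or without R848 replicate 1 or 2 or combined replicate 2 (0.31 to 0.39).

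Sequence 250 bases upstream of the transcription start was searched for 5 elements (ISRE, GAS, and the NF-κB, antioxidant and sterol elements given further on) on both strands in the 8127 tested genes with a RefSeq promoter entry (GRCm38.p6). The ISRE pattern, GAAA and a second GAAA with 2 bases between them, was in 3.47% of them (3.46% of all 27025 RefSeq promoters), in 90 of 850 genes that rose (10.6%), in 61 of 271 that rose at least 4-fold (22.5%) and in 24 of 1273 that fell (1.89%). The GAS pattern TTCNNNGAA was in 7.32% of tested genes (8.13% of all), in 14% of rises of at least 4-fold and in 7.31% of falls. Of the GBP and IRG genes with an entry, 11 of 11 held the ISRE pattern and 7 of 11 the GAS pattern, and of the IFIT and OAS genes 9 of 12 held the ISRE pattern. Slfn1, Cxcl9 and Serpina3g, the largest named rises, held no ISRE match in this window. Slfn1 held an NF-κB match, and Serpina3g a GAS and an NF-κB match. For Slfn1 and Serpina3g the RefSeq start did not match a reference transcript start of the same symbol, so their windows may miss the promoter. Among tested genes with such transcripts, the first 25 bases after the start were found in one for 6525 of 8117. A match is a description of these letters and was not tested as a binding site. The Isg15 promoter is shown because it holds 3 overlapping ISRE matches, the first starting 78 bases upstream of the start, and the Gbp7 promoter because it holds GAS matches beginning 106 and 87 bases upstream and an ISRE match beginning 53 bases upstream. Capitals mark the matches, each sequence runs 5′ to 3′ on the gene's strand, and both genes were chosen after the matches were seen. Isg15 lies on the minus strand at chr4:156200819-156201068 and Gbp7 on the plus strand at chr3:142530086-142530335.
Isg15: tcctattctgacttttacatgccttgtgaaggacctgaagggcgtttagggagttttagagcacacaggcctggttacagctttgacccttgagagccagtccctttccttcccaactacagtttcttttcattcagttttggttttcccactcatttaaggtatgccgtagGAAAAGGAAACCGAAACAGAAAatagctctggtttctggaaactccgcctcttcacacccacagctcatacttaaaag
Gbp7: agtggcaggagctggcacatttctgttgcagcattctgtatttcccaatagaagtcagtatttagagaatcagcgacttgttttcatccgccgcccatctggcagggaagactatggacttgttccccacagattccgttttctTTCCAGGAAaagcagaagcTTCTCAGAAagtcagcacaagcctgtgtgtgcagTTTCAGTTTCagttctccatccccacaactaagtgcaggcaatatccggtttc

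Sensors of foreign nucleic acid rose with them. In a list of 28 RNA and DNA sensing genes 23 rose and 1 fell (median 3.39, and the same with Pydc4 at its bound). Pyhin1 had 2.53, 3.07 and 4.89 CPM under R848 and 455, 436 and 444 CPM under the combination, and Ifi205, another gene of the IFI200 family that binds DNA, had 5.89, 5.83 and 4.31 CPM under R848 and 549.8, 471 and 486 CPM under the combination. Neither gene's groups overlapped. Pydc3 had 2 counts with R848, both in replicate 3, and 272 with both, a ratio of 136 (95% counting interval 37.3 to 1130). Tlr7, the receptor that R848 itself engages, had 95.7, 125 and 110.1 CPM under R848 and 624, 577 and 612 CPM under the combination (2.46 ± 0.11). Of the endosomal Toll-like receptors, the bacterial RNA sensor Tlr13 fell (-0.36 ± 0.11). Tlr13 lost its call without R848 replicate 2 or combined replicate 2 or 3 (-0.33 to -0.26, adjusted p up to 0.115, edgeR). The RNA signalling adaptor Mavs was not called (21 ± 0.798 CPM under R848 against 15.1 ± 3.14 CPM combined) but was called lower by the upper quartile or by library totals (-0.84 to -0.58). Ikbke, a kinase that activates Irf3, was not called either (237 ± 9.47 CPM under R848 against 269 ± 19.4 CPM combined), but was called higher without R848 replicate 1 (0.25).

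The signalling genes of the interferon pathway moved unevenly, with 13 of 32 rising and 3 falling. Stat2 had 23.3, 21.2 and 20.4 CPM under R848 and 299, 301 and 301 CPM under the combination (3.79 ± 0.12), and its partner in ISRE binding, Irf9, had 38.2, 38.7 and 37.7 CPM under R848 and 138, 120.1 and 119 CPM under the combination (1.72 ± 0.12). No library of one group reached the other in either gene. Irf7, the master regulator of IFN-α genes, rose by 5.44 ± 0.12 and Irf8, a factor of the microglial lineage, by 3.1 ± 0.11. The feedback inhibitor Socs1 had 17.7, 10.7 and 13.5 CPM under R848 and 82.6, 86.2 and 77.8 CPM under the combination (2.54 ± 0.16), and Socs3 had 145, 109.6 and 109.6 CPM under R848 and 219.9, 193 and 214 CPM under the combination (0.78 ± 0.12). The receptor genes were not called. Ifnar1 was at 324 ± 9.97 CPM under R848 against 366 ± 35.9 CPM combined (adjusted p = 0.168, edgeR) and was called higher without R848 replicate 1 (0.21). Ifnar2 was at 102 ± 7.61 CPM under R848 against 106 ± 8.38 CPM combined (adjusted p = 0.783, edgeR) and was called lower by library totals (-0.34). Ifngr1, the ligand-binding chain for IFN-γ, fell (-0.79 ± 0.12), and so did the phosphatase gene Ptpn6 (-0.50 ± 0.10) and Irf3 (-0.45 ± 0.16), the factor that induces Ifnb1. Irf3 lost its call with DESeq2 or without R848 replicate 3 or combined replicate 1 or 3 (-0.43 to -0.33, adjusted p up to 0.182, edgeR and DESeq2). Ifnb1 itself was too sparse to test, with 1, 0 and 0 counts in the R848 libraries and 4, 1 and 8 in the combined ones. Counts this low were given no fold change.

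Of 22 genes of MHC class I presentation 18 rose and none fell (median 1.61). Nlrc5, the transactivator of class I genes, had 45.7, 37.8 and 38.8 CPM under R848 and 832, 738 and 766 CPM under the combination (4.25 ± 0.11). Tap1, a subunit of the transporter that carries peptides into the endoplasmic reticulum, had 36.5, 28.9 and 24.7 CPM under R848 and 647, 586 and 649 CPM under the combination (4.38 ± 0.13). The immunoproteasome subunit gene Psmb9 went from 13.6 to 121 CPM (3.15 ± 0.14) and the non-classical H2-T24 from 6.33 to 161 CPM (4.66 ± 0.15), and no library overlapped between groups in these 4 genes. H2 genes are near-identical to one another and H2-T24 is uncertain for that reason. The chaperones Calr (-0.01), Canx (-0.03) and Pdia3 (0.06), which also serve other cargo, were not called, though all 3 were called lower with library totals alone (-0.39, -0.42 and -0.33). Constitutive proteasome genes did not follow: in the family of Psma to Psmd symbols, 4 of 38 rose, of which 3 were the immunoproteasome genes Psmb8, Psmb9 and Psmb10, and 3 fell.

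Of 25 genes for surface Toll-like receptors and TLR adaptors 2 rose and 6 fell, with Tlr2 (1399.8 ± 139.8 CPM under R848 against 1220.5 ± 72.5 CPM combined), Tlr4 (50.3 ± 3.93 CPM under R848 against 54.4 ± 2.29 CPM combined) and Tlr1 (46.9 ± 3.85 CPM under R848 against 44.3 ± 6.86 CPM combined) not called. Tlr2 was called lower by the upper quartile or by library totals (-0.58 to -0.33), and Tlr1 was called lower by library totals (-0.49). With TMM alone 6 of the 25 were called higher and 6 lower. Myd88, the adaptor that TLR7 uses, had 112, 103 and 109.8 CPM under R848 and 349, 327 and 337 CPM under the combination (1.64 ± 0.10), and the ubiquitin ligase gene Peli1 had 75.8, 79.2 and 79.7 CPM under R848 and 431, 393 and 406 CPM under the combination (2.39 ± 0.10). Neither overlapped between groups. Its relative Peli3 went the other way, with 6.45, 4.61 and 4.03 CPM under R848 and 0.362, 0.419 and 0.389 CPM under the combination (-3.58 ± 0.53). Irak3, which restrains TLR signalling, had 209.6, 199.9 and 208 CPM under R848 and 80.8, 63.6 and 68.1 CPM under the combination (-1.54 ± 0.11), again with no overlap. Ticam2 (-1.06 ± 0.18) and Tirap (-0.62 ± 0.22), bridging adaptors for surface TLRs, also fell. Tirap lost its call with DESeq2, after thinning to the smallest library or without R848 replicate 2 or 3 or combined replicate 2 or 3 (-0.63 to -0.41, adjusted p up to 0.167, edgeR and DESeq2). Of 26 NF-κB genes 8 rose and 3 fell, beside 15 higher and 3 lower calls with TMM alone. The rises were led by N4bp1 (1.41 ± 0.11), Birc2 (1.01 ± 0.15), the nuclear inhibitor gene Nfkbid (0.92 ± 0.19) and Rel (0.90 ± 0.18), and the falls included the kinase genes Ikbkb (-0.57 ± 0.17) and Ikbkg (-0.50 ± 0.10). Ikbkb lost its call without R848 replicate 1 or combined replicate 2 (-0.43 to -0.32, adjusted p up to 0.0909, edgeR). Nfkbia, a standard early target of NF-κB, was at 509.5 ± 51.3 CPM under R848 against 565 ± 4.01 CPM combined and was not called, but was called higher without R848 replicate 1 (0.27).

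Most cytokine genes rose or were not called. Of 23 interleukin and TNF family genes 13 rose and 1 fell (median 0.91). Il15, which sustains NK cells, had 7.58, 8.29 and 5.75 CPM under R848 and 196, 153 and 200.4 CPM under the combination (4.67 ± 0.17), and its presenting receptor Il15ra went from 6.91 to 93.9 CPM (3.74 ± 0.19). Neither gene's groups overlapped. Il6 had 103, 127 and 139 CPM under R848 and 1537, 1326 and 1547 CPM under the combination (3.58 ± 0.12). Il27 went from 18 to 355 CPM (4.29 ± 0.14), whereas Ebi3, which encodes the partner chain of the IL-27 heterodimer, fell from 14 to 8.49 CPM (-0.76 ± 0.27), with overlapping libraries. Ebi3 lost its call with DESeq2, after thinning to the smallest library or without R848 replicate 1 or 3 or combined replicate 2 or 3 (-0.74 to -0.54, adjusted p up to 0.23, edgeR and DESeq2). Tnfsf10, encoding the death ligand TRAIL, had 1.96, 1.54 and 1.44 CPM under R848 and 221, 209 and 208 CPM under the combination. Tnf had 5047, 4124 and 4362 CPM under R848 and 9328, 7790.1 and 8388 CPM under the combination, a rise of 0.91 ± 0.10 in libraries that did not overlap. Il10, an anti-inflammatory cytokine, rose at a low level, from 2.33 to 6.76 CPM (1.55 ± 0.37). In contrast Il1b had 5240.3, 5352 and 5968 CPM under R848 and 6159, 5494 and 6054 CPM under the combination, with overlapping groups (0.10 ± 0.09, adjusted p = 0.426, edgeR; -0.29 and called lower with library totals alone). Il12b had 219, 232 and 272 CPM under R848 and 250.3, 239 and 231 CPM under the combination (-0.01 ± 0.10, adjusted p = 0.968, edgeR). Il12b was called lower with library totals alone (-0.40 on the log2 scale). Il12a and Il23a were too sparse to test, at 3 and 8 counts in all for Il12a and 23 and 16 for Il23a, R848 group first.

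Receptors and decoys for cytokines rose in 10 of 28 cases and fell in 2. Il18bp, a secreted inhibitor of IL-18, rose by 2.78 ± 0.21, Il21r by 2.26 ± 0.27 and Cd40, a costimulatory receptor, by 2.22 ± 0.10. The falls were Tgfbr1 (299, 440.3 and 393 CPM under R848 and 162, 159 and 167 CPM under the combination) and Csf1r, the receptor on which microglia depend for survival (191, 129 and 112 CPM under R848 and 92, 95.4 and 98.1 CPM under the combination). Neither gene's groups overlapped, and the log2 fold changes were -1.21 ± 0.12 and -0.60 ± 0.15.

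Of 23 chemokine ligand genes 10 rose and 6 fell. The members that rose are known to attract T cells, NK cells and monocytes. Besides Cxcl9, Cxcl10 had 23.9, 25.8 and 23.6 CPM under R848 and 446, 512 and 497 CPM under the combination (4.31 ± 0.12), and Ccl12 had 7.58, 9.83 and 10.1 CPM under R848 and 798, 680.2 and 812 CPM under the combination (6.38 ± 0.14). Ccl2, the ligand of the monocyte receptor Ccr2, had 258, 345 and 351 CPM under R848 and 2217, 2089 and 2104 CPM under the combination (2.75 ± 0.11), and Ccl5 went from 252 to 1608 CPM (2.67 ± 0.13). None of these 5 overlapped between groups. Cxcl11 went from 66 to 1340.0 CPM (4.35 ± 0.14), a locus that RefSeq lists as a transcribed pseudogene, and Ccl8 went from 0.766 to 18.9 CPM (4.55 ± 0.36). The members that fell most attract neutrophils through Cxcr2. Cxcl3 had 140.3, 120.4 and 115 CPM under R848 and 2.9, 4.19 and 3.11 CPM under the combination (-5.23 ± 0.19), the largest of the named falls. Cxcl1 had 1093, 1062 and 1126 CPM under R848 and 260.4, 228 and 243 CPM under the combination (-2.16 ± 0.09), and Cxcl2 had 3782, 3672 and 3982 CPM under R848 and 1721, 1493 and 1567 CPM under the combination (-1.26 ± 0.09). All 3 were lower in each combined library than in any R848 library. Cxcl5 fell from 11.4 to 1.75 CPM (-2.82 ± 0.36) and Ccl22, a ligand for regulatory T cells, from 6.18 to 2.3 CPM (-1.5 ± 0.40). Ccl22 lost its call without combined replicate 3 (-1.18, adjusted p 0.0769, edgeR).

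Both kinds of CXC chemokine gene lie on chromosome 5. In RefSeq (GRCm38.p6), Cxcl3, Cxcl1 and Cxcl2 lie at chr5:90786101-90788093, chr5:90891245-90893121 and chr5:90903899-90905938, and Cxcl9 and Cxcl10 lie at chr5:92321331-92328079 and chr5:92346638-92348889. Their promoters are shown to compare the letters upstream of genes that fell and genes that rose. Cxcl3, Cxcl1 and Cxcl2 each held a run that matches the NF-κB motif on both strands, beginning 73, 71 and 97 bases upstream of the start, and no ISRE match. Cxcl10 held NF-κB matches beginning 159 and 103 bases upstream and an ISRE match beginning 213 bases upstream. Cxcl9 held no ISRE, GAS or NF-κB match in this window. The NF-κB motif searched was GGGRNWYYCC, where R is A or G, W is A or T, Y is C or T and N is any base. It was in 5.77% of tested genes with an entry (4.455% of all RefSeq promoters), 8.24% of rises and 6.13% of falls. Capitals mark matches. Cxcl3, Cxcl1 and Cxcl2 are on the plus strand at chr5:90785851-90786100, chr5:90890995-90891244 and chr5:90903649-90903898, and Cxcl9 and Cxcl10 on the minus strand at chr5:92328080-92328329 and chr5:92348890-92349139. Cxcl1, Cxcl2 and Cxcl10 were chosen for display after their values were seen.
Cxcl3: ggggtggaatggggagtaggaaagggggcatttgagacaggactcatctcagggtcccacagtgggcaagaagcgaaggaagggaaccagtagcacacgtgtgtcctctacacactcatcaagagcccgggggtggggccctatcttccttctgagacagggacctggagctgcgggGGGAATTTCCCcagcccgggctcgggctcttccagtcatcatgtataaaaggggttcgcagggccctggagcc
Cxcl1: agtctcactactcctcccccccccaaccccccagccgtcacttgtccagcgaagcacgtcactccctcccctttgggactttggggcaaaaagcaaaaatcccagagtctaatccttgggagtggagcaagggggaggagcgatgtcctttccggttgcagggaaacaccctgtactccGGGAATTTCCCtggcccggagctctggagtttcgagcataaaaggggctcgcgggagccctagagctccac
Cxcl2: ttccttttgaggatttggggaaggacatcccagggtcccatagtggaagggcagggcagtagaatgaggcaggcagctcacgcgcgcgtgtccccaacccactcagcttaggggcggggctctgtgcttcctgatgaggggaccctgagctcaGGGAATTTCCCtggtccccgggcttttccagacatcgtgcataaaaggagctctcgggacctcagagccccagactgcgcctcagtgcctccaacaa
Cxcl10: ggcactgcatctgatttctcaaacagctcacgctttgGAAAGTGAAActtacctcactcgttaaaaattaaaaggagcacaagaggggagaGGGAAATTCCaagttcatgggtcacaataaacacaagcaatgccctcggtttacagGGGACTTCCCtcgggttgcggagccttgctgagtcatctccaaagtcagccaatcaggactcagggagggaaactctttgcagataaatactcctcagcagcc
Cxcl9: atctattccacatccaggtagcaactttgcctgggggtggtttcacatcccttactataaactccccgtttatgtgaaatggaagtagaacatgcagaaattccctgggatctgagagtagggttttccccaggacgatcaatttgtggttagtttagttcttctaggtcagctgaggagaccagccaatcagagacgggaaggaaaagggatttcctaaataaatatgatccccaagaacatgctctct

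Chemokine receptors moved both ways. The non-signalling receptor gene Ccrl2 rose from 245 to 1344 CPM (2.45 ± 0.10) and Ccr1 from 23.2 to 83.2 CPM (1.85 ± 0.15). Cxcr4 had 36.8, 38.7 and 49.2 CPM under R848 and 10.1, 8.79 and 12.8 CPM under the combination (-1.92 ± 0.19), and the formyl peptide receptor Fpr1 had 385, 451 and 436 CPM under R848 and 202, 195 and 188 CPM under the combination (-1.12 ± 0.10). Both fell without overlap. Cx3cr1, the microglial receptor for fractalkine, fell from 199 to 138 CPM (-0.53 ± 0.11).

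**Figure D4:**
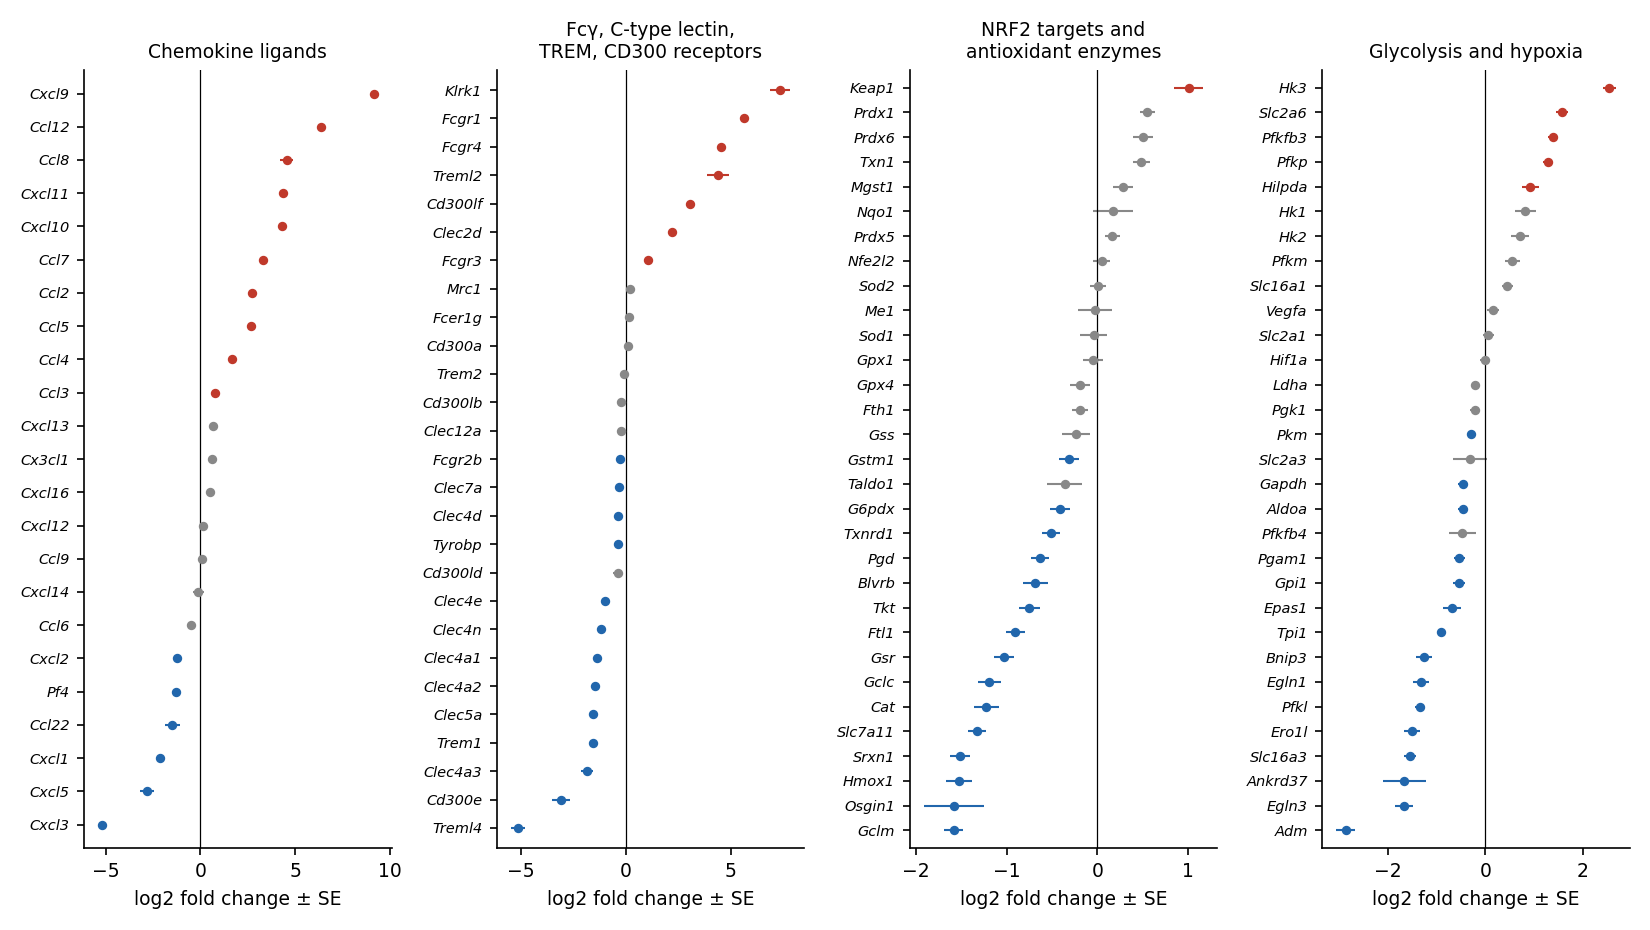
Log2 fold change with SE for every tested member of 4 lists, ordered by value. Red members rose and blue members fell under all 5 scalings, and grey members did not meet that rule. Among these lists chemokine ligands span the widest range, from Cxcl9 (9.19) to Cxcl3 (-5.23). Among glycolysis and hypoxia genes 5 are red and 15 blue.

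Among Fcγ, C-type lectin, TREM and CD300 receptors 7 of 27 rose and 13 fell, beside 10.8% and 15.1% of all genes. The rises included Klrk1 and receptors for antibody. Fcgr1, the high-affinity activating IgG receptor, had 7.3, 11.1 and 10.4 CPM under R848 and 468, 451 and 479 CPM under the combination (5.61 ± 0.14), and Fcgr4 had 5.05, 6.45 and 5.46 CPM under R848 and 147, 114 and 129 CPM under the combination (4.52 ± 0.17). Neither overlapped between groups, and the inhibitory receptor Fcgr2b fell from 224 to 183 CPM (-0.29 ± 0.10). Treml4, which amplifies TLR7 signalling, had 21, 21.8 and 21.9 CPM under R848 and 1.09, 0.419 and 0.389 CPM under the combination (-5.12 ± 0.35), and the next fall, Cd300e, had 7.58, 8.6 and 7.19 CPM under R848 and 0.362, 1.67 and 0.778 CPM under the combination (-3.09 ± 0.42). Trem1, an amplifier of inflammation, fell from 36.2 to 12 CPM (-1.57 ± 0.17) and Clec4a3 from 12.7 to 3.28 CPM (-1.83 ± 0.30). Trem2 was at 217 ± 22.8 CPM under R848 against 207 ± 19.9 CPM combined and was not called, but was called lower by library totals (-0.44). Fcgr2b lost its call without R848 replicate 3 or combined replicate 1 or 2 or 3 (-0.30 to -0.25, adjusted p up to 0.0978, edgeR). Fcgr2b was named after its values were seen.

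Complement, scavenger and clearance genes rose in 12 of 30 cases and fell in 2. Cfb of the alternative pathway (2.63 ± 0.14), C1ra of the classical pathway (2.02 ± 0.26) and the inhibitor gene Serping1 (2.3 ± 0.20) rose, as did the phosphatidylserine-sensing kinase gene Mertk (2.44 ± 0.20). Marco, a scavenger receptor for bacteria, had 1003, 1029 and 1022 CPM under R848 and 423, 428 and 425 CPM under the combination (-1.26 ± 0.09), with each combined library below every R848 library. In the purinergic list 5 of 16 rose and 3 fell. P2ry12, the ADP receptor that guides microglial processes, rose at a low level from 2.34 to 8.84 CPM (1.92 ± 0.36), with P2ry13 (3.58 ± 0.35), P2ry14 (3.9 ± 0.34; 4.68 without R848 replicate 1) and the nucleotidase gene Entpd1 (2.53 ± 0.18). The adenosine receptors Adora2b (-0.90 ± 0.16) and Adora2a (-0.66 ± 0.15) fell. Among 23 homeostatic microglia genes 3 rose and 5 fell, the largest fall being that of Tmem119, at 3.65, 3.99 and 3.45 CPM under R848 and 0.362, 0 and 0.778 CPM under the combination. Its summed counts were 38 and 5, of which combined replicate 3 held 4, and its log2 fold change was -2.85 ± 0.56, or -3.99 without that library. Among 25 genes of disease-associated microglia 5 rose, led by Axl (1.91 ± 0.10) and Cst7 (1.84 ± 0.19), and 5 fell, led by Lpl (-1.04 ± 0.11) and Igf1 (-0.90 ± 0.10). With TMM alone 10 of these were called higher and 5 lower, and of the homeostatic genes 7 were called higher and 5 lower.

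Effector genes of inflammation moved both ways. Nos2, the inducible nitric oxide synthase, had 22.5, 12 and 15.5 CPM under R848 and 428, 436 and 500.4 CPM under the combination (4.76 ± 0.15). Gch1, whose product starts synthesis of the cofactor BH4, rose by 1.49 ± 0.11, and the arginine transporter Slc7a2 by 1.16 ± 0.09, while the other arginine transporter gene Slc7a1 (-0.67 ± 0.14) and Asl, which regenerates arginine (-0.65 ± 0.17), fell. Irg1, which makes itaconate, had 3242, 2987 and 2854 CPM under R848 and 8696, 7483 and 7685 CPM under the combination (1.39 ± 0.09). Ptgs2, encoding the cyclooxygenase COX-2, had 928, 1001 and 1180.4 CPM under R848 and 4109.9, 3497 and 3590.4 CPM under the combination (1.85 ± 0.10), without overlap. Further along that route the prostaglandin E synthase gene Ptges fell from 658 to 385 CPM (-0.77 ± 0.09), as did the receptor genes Ptger4 (-1.54 ± 0.24), Ptgir (-1.68 ± 0.20) and Ptger2 (-2.11 ± 0.47; -2.79 without combined replicate 3 and -2.77 after thinning). Mmp13, a collagenase gene, had 356, 379 and 404 CPM under R848 and 6899, 6075 and 6494 CPM under the combination (4.09 ± 0.10), the second largest gain in CPM, while Mmp3 (-0.18), Mmp12 (-0.12) and Mmp9 (-0.81) were not called. Mmp3 was called lower by the upper quartile, by library totals or without R848 replicate 1 (-0.57 to -0.28) and Mmp12 was called lower by the upper quartile or by library totals (-0.51 to -0.26). Mmp9 was called lower by the upper quartile, by library totals, without the low-count filter, after thinning to the smallest library, with a replicate block or without R848 replicate 3 or combined replicate 1 (-1.18 to -0.77). Of opposing vasoactive peptides, the constrictor gene Edn1 had 8.98, 9.83 and 14.1 CPM under R848 and 231, 208 and 197 CPM under the combination (4.27 ± 0.15). The dilator gene Adm had 64.5, 44.2 and 54.3 CPM under R848 and 5.8, 7.53 and 8.37 CPM under the combination (-2.87 ± 0.20), and its receptor gene Calcrl fell as well (-1.13 ± 0.15).

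NRF2 induces antioxidant and detoxifying enzymes. Of 31 target and antioxidant genes tested 15 fell and 1 rose (median -0.31). The antioxidant response element TGACNNNGC was in 7 of the 27 with a promoter entry, against 13.95% of tested genes (11.5% of all RefSeq promoters). Gclm, the regulatory subunit for glutathione synthesis, had 249, 239.5 and 249.9 CPM under R848 and 85.8, 82.5 and 79 CPM under the combination (-1.58 ± 0.10), and Srxn1, which repairs oxidised peroxiredoxins, had 579.8, 444 and 489 CPM under R848 and 188, 170.0 and 173 CPM under the combination (-1.51 ± 0.11). Hmox1, haem oxygenase, had 1985, 1218 and 1317 CPM under R848 and 528, 529.9 and 517 CPM under the combination (-1.52 ± 0.14). In each of the 3 genes the highest combined library was below the lowest R848 library. Nfe2l2, which encodes NRF2 itself, was at 537 ± 10.7 CPM under R848 against 556 ± 47.3 CPM combined and was not called (0.05 ± 0.09), although library totals alone called it lower (-0.33). Keap1, the adaptor that targets NRF2 for degradation, rose from 25.9 to 52.3 CPM (1.01 ± 0.16). Sod2, a mitochondrial enzyme, was at 1497 ± 43.5 CPM under R848 against 1502 ± 104 CPM combined and was not called, but was called lower with library totals alone (-0.38). Iron and haem genes fell in 7 of 18 cases and 1 rose. The iron exporter Slc40a1 had 91.8, 80.4 and 98.9 CPM under R848 and 31.9, 18.4 and 31.5 CPM under the combination (-1.69 ± 0.16), and the phagosomal metal transporter Slc11a1 went from 210.3 to 97.7 CPM (-1.11 ± 0.11). Ftl1, the ferritin light chain, fell from 5564 to 2978 CPM (-0.90 ± 0.11), whereas the heavy chain Fth1 was not called (-0.19 ± 0.09) but was called lower by the upper quartile or by library totals (-0.57 to -0.33), and its groups did not overlap. Ftl1 has processed copies in the genome and is uncertain. Slc48a1, a haem transporter, fell (-1.63 ± 0.11). In the NADPH oxidase list 6 of 8 genes fell. The proton channel gene Hvcn1 had 442, 407 and 378 CPM under R848 and 82.6, 98 and 87.6 CPM under the combination (-2.2 ± 0.11), and the smaller falls included Ncf1 (-0.61 ± 0.13), Ncf4 (-0.51 ± 0.13) and Rac2 (-0.39 ± 0.10), while the catalytic subunit Cybb was not called (-0.06 ± 0.09) but was called lower by library totals (-0.44).

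Of 25 genes of sterol synthesis 17 fell and none rose (median -0.64). The sterol element TCACNCCAC was in 1 of the 18 with a promoter entry, against 1.255% of tested genes (1.225% of all RefSeq promoters). Sqle, squalene epoxidase, had 137, 138 and 141 CPM under R848 and 69.5, 67 and 68.7 CPM under the combination (-1.02 ± 0.11). Mvd had 28.1, 22.1 and 16.1 CPM under R848 and 5.43, 7.53 and 5.25 CPM under the combination and the largest change (-1.9 ± 0.25). Neither group reached the other in these genes. Stard4, a carrier of cholesterol (-1.05 ± 0.21), and Hsd17b7 (-1.08 ± 0.22) fell too. Srebf2, which encodes the factor that drives these genes, was called lower (-0.32 ± 0.12, adjusted p = 0.0462, edgeR) but not under every scaling. Srebf2 lost its call with RLE factors, with DESeq2 or without R848 replicate 1 or combined replicate 1 or 2 or 3 (-0.38 to -0.14, adjusted p up to 0.278, edgeR and DESeq2). Fatty acid and LXR genes fell in 8 of 23 cases, among them the nuclear receptors Nr1h3 (-1.05 ± 0.21) and Ppard (-1.08 ± 0.30), and 2 rose, the sterol exporter Abcg1 (1.52 ± 0.23) and the lipid droplet gene Plin2 (1.21 ± 0.09). Ppard lost its call without R848 replicate 1 or combined replicate 3 (-1.0 to -0.72, adjusted p up to 0.0797, edgeR). Fasn, the fatty acid synthase gene, fell from 46.5 to 28.6 CPM (-0.70 ± 0.17) and was named after its values were seen.

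Glycolysis and hypoxia genes fell in 15 of 31 cases and rose in 5. Slc16a3, the lactate exporter, had 236, 178 and 192 CPM under R848 and 75, 66.1 and 66.5 CPM under the combination (-1.55 ± 0.12), and the oxygen sensor gene Egln3 had 50, 43 and 50.9 CPM under R848 and 12.7, 22.2 and 12.3 CPM under the combination (-1.67 ± 0.19). The hypoxia factor gene Hif1a was at 274 ± 35.3 CPM under R848 against 273 ± 12.7 CPM combined and was not called, but was called lower by library totals (-0.39). The rises were the hexokinase Hk3 (2.55 ± 0.13), the transporter Slc2a6 (1.57 ± 0.12), Pfkfb3 (1.39 ± 0.11) and the phosphofructokinase Pfkp (1.29 ± 0.10), with Hilpda. TCA cycle genes were mostly not called, with 2 rising, Pdk3 (1.77 ± 0.20) and Irg1, and 2 falling, Aco1 (-0.66 ± 0.13) and Ogdh (-0.57 ± 0.14), of 25. None of 69 OXPHOS subunit genes rose and 2 fell, and none of 77 cytosolic ribosomal protein genes rose and 4 fell.

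Transcription factor genes of the myeloid lineage rose in 8 of 35 cases and fell in 10. Batf2 had 2.25, 2.15 and 0.288 CPM under R848 and 85.1, 76.2 and 73.5 CPM under the combination (5.62 ± 0.26), and Bcl6, a repressor, rose by 1.63 ± 0.16. Cebpa, which drives myeloid differentiation, had 94.6, 71.5 and 67 CPM under R848 and 23.2, 26 and 20.8 CPM under the combination (-1.76 ± 0.16), and Tfec, a relative of Mitf, had 75.2, 66.6 and 82.8 CPM under R848 and 27.5, 18.8 and 20.2 CPM under the combination (-1.76 ± 0.15). Neither overlapped between groups. Spic, a factor of iron-recycling macrophages, fell from 5.29 to 0.678 CPM (-2.89 ± 0.53). Rxra, the partner of several nuclear receptors, fell (-1.15 ± 0.16). Among immediate early and related genes 11 of 38 rose, including Egr1 (1.93 ± 0.24), Atf3 (1.89 ± 0.11) and Mafk (2.46 ± 0.24), and 3 fell. Of 18 regulators of cytokine mRNA decay 3 rose and 2 fell, the falls being Zc3h12c and Khsrp. The rises included Zfp36 (2.14 ± 0.17), whose product shortens the life of Tnf mRNA, and Arid5a (2.98 ± 0.20), whose product stabilises Il6 mRNA.

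Cell death, costimulation and cell cycle genes changed in part. Of 31 inflammasome and cell death genes 14 rose and 4 fell (median 0.70). Mlkl, the effector of necroptosis, had 1.12, 0.921 and 0.863 CPM under R848 and 18.1, 23 and 24.3 CPM under the combination (4.45 ± 0.32), and Casp1, the inflammasome protease, went from 59.7 to 263 CPM (2.14 ± 0.11). The falls were Fadd (-0.72 ± 0.24), Bcl2 (-0.71 ± 0.22), Bax (-0.67 ± 0.13) and Naip2 (-0.31 ± 0.11). Fadd lost its call with DESeq2 or without R848 replicate 3 or combined replicate 2 or 3 (-0.72 to -0.57, adjusted p up to 0.131, edgeR and DESeq2). Bcl2 lost its call with DESeq2 or without R848 replicate 3 or combined replicate 1 (-0.69 to -0.61, adjusted p up to 0.0719, edgeR and DESeq2). Naip2 lost its call with DESeq2, without the low-count filter or without R848 replicate 2 or 3 or combined replicate 1 or 2 or 3 (-0.33 to -0.27, adjusted p up to 0.1, edgeR and DESeq2). Of 19 costimulation genes 9 rose, led by Slamf7 (5.33 ± 0.13) and Slamf8 (4.28 ± 0.22), with the T cell ligand Cd86 (2.87 ± 0.13), and 4 fell, including Icosl (-0.93 ± 0.12). Among 22 cell cycle genes the 5 rises were the D-type cyclins Ccnd2 (2.12 ± 0.16), Ccnd3 and Ccnd1, the inhibitor Cdkn1a (1.97 ± 0.11) and Mcm6, and the 4 falls were Mki67 (22.7, 20.9 and 19.6 CPM under R848 and 6.16, 6.7 and 7.39 CPM under the combination, -1.61 ± 0.21), Ccna2 (-1.08 ± 0.36), Cdk1 (-0.92 ± 0.29) and Mcm5 (-0.76 ± 0.25). Ccna2 lost its call with DESeq2 or without R848 replicate 2 or 3 or combined replicate 1 (-1.1 to -0.82, adjusted p up to 0.112, edgeR and DESeq2). Cdk1 lost its call with DESeq2 or without R848 replicate 3 or combined replicate 1 (-0.93 to -0.79, adjusted p up to 0.0773, edgeR and DESeq2). Mcm5 lost its call with DESeq2, after thinning to the smallest library or without R848 replicate 1 or combined replicate 1 (-0.75 to -0.55, adjusted p up to 0.105, edgeR and DESeq2). Ccnd1 was named after its values were seen.

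Families picked by symbol alone, and a list of glycosyltransferases and sulfotransferases picked by function like the lists above, gave a wider view. Of 162 solute carriers 17 rose and 40 fell. The largest rises were Slc28a2, a nucleoside transporter (4.27 ± 0.35), and Slc25a22, a mitochondrial glutamate carrier (3.58 ± 0.17), and the falls included the amino acid transporter Slc16a10 (-1.62 ± 0.12) and the mitochondrial carrier Slc25a10 (-1.55 ± 0.15). Of 49 glycosyltransferases and sulfotransferases 9 rose and 13 fell, beside 15 higher and 14 lower calls with TMM alone. Chst10, which makes the HNK-1 sulfated glycan, had 30.6, 27.6 and 27.6 CPM under R848 and 3.62, 1.67 and 4.67 CPM under the combination (-2.96 ± 0.24), and St3gal3, a sialyltransferase, had 90.6, 68.2 and 77.6 CPM under R848 and 23.2, 26 and 19.8 CPM under the combination (-1.81 ± 0.15), with no overlap in either. B3gnt7 fell (-2.74 ± 0.31), while its relative B3gnt2 rose (1.9 ± 0.10). Of 33 Trim genes 10 rose and 4 fell, and of 247 Zfp zinc finger genes 10 rose and 33 fell. Among the largest falls outside these lists were Sla, an adaptor that dampens receptor signalling, at 129.9, 131 and 147 CPM under R848 and 12.3, 19.3 and 18.9 CPM under the combination (-2.99 ± 0.15), and Sephs2, which makes selenophosphate, at 134, 129.6 and 147 CPM under R848 and 21, 30.1 and 28.8 CPM under the combination (-2.35 ± 0.13). Rin3 (-2.66 ± 0.53), Prkar2b (-2.43 ± 0.36), Mturn (-2.42 ± 0.31) and Sema4a (-2.25 ± 0.40) completed the 15 largest falls. Rin3 had 1, 0 and 8 counts in the combined libraries, and its log2 fold change was -4.59 without combined replicate 3 and -3.65 after thinning to the smallest library.

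**Figure D5:**
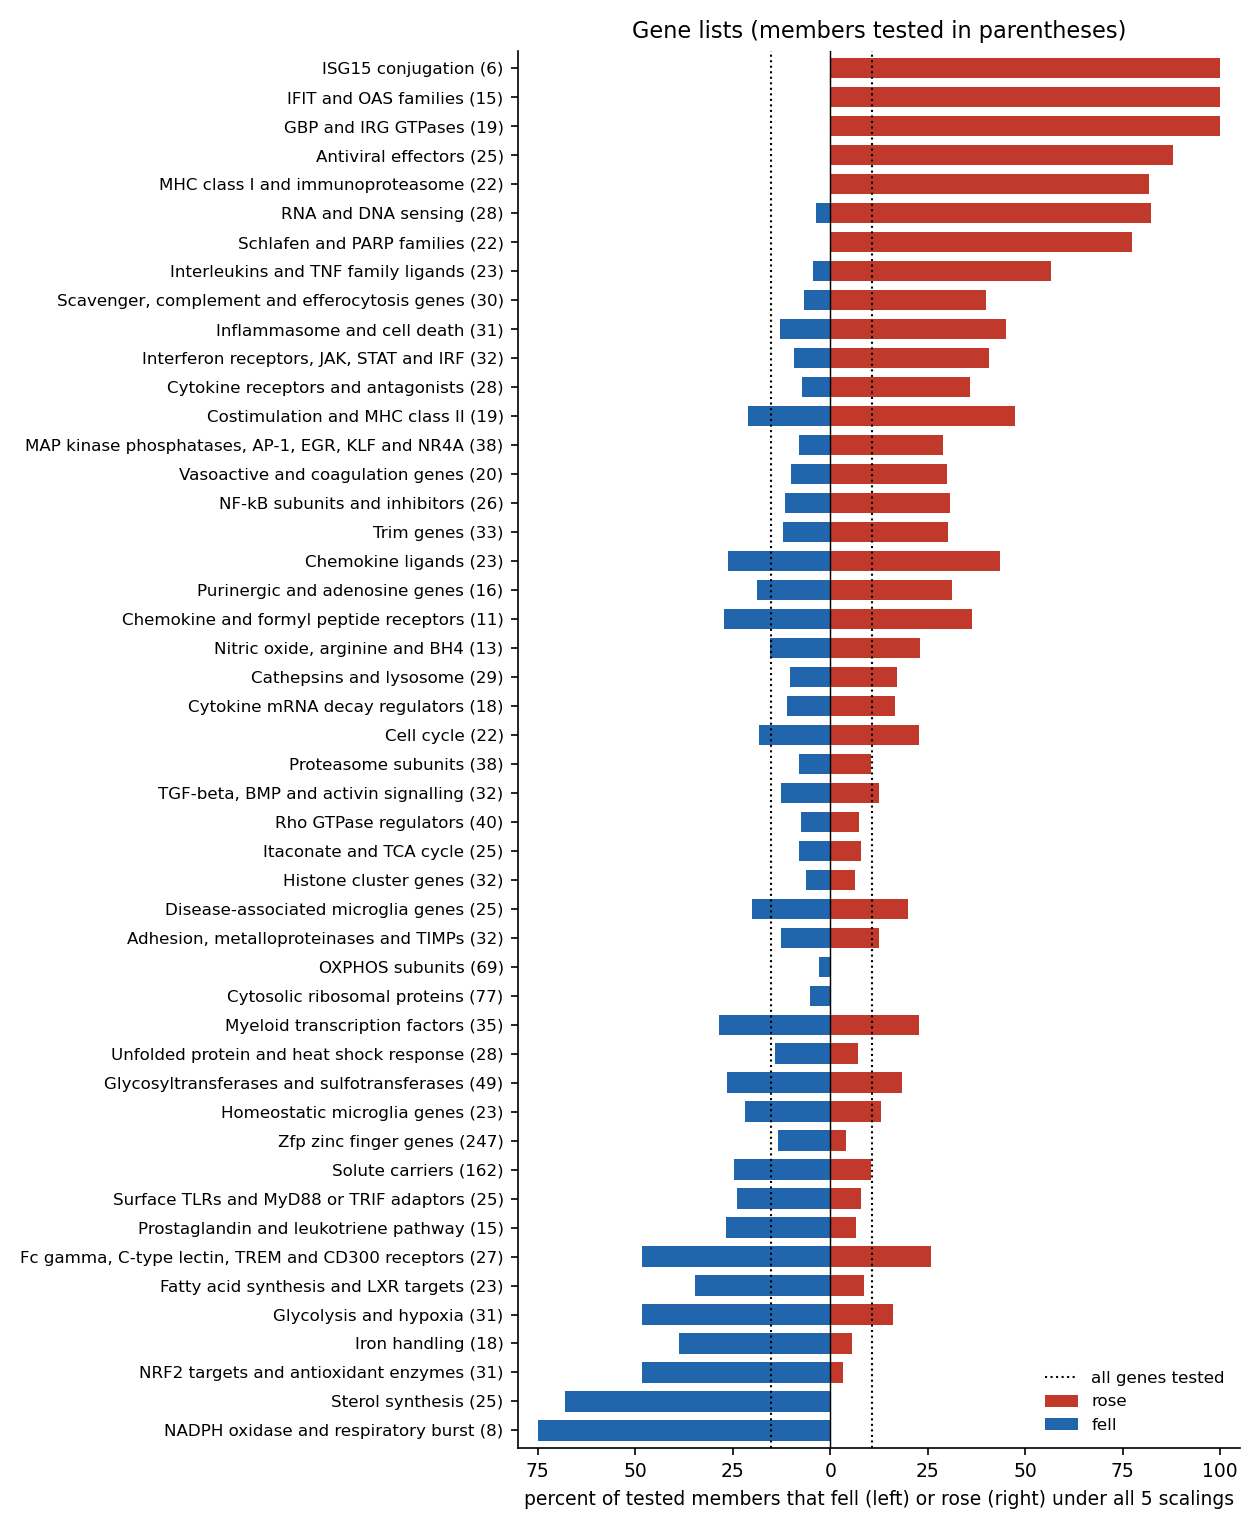
Percent of tested members of each gene list that rose (red, right) or fell (blue, left) under all 5 scalings, ordered by the difference, with dotted lines at the 10.8% and 15.1% of all genes tested. All tested members of the ISG15, IFIT and OAS, and GBP and IRG lists rose, and at the other end 6 of 8 NADPH oxidase genes and 17 of 25 sterol genes fell.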

How the data were processed

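RNA was sequenced after rRNA depletion with a directional paired-end kit at 101 cycles. Per the submitters' processing notes, CASAVA 1.8.2, Trimmomatic 0.33, STAR 2.5.1, DESeq2 and the mm10 build were used. No source used here names the gene annotation. The authors deposited raw gene counts per library, and the column for the kit's strand (column 4) was used after dropping 4 summary rows per file, leaving 24411 genes. Those rows name no gene and held 19.8% to 26.3% (unmapped), 7.22% to 8.45% (multimapping), 39.3% to 44.4% (no feature) and 0.144% to 0.191% (ambiguous) of read pairs. The libraries held 2795385 to 6005578 gene counts, which limits the precision of low genes.

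The 3 R848 and 3 combined libraries were compared with edgeR 4.0.16 in R 4.3.3 (filterByExpr, minimum count 10 and total 15, TMM, robust quasi-likelihood F test, Benjamini-Hochberg threshold 0.05). CPM uses TMM-scaled library sizes. The alternatives covered scaling, filters, DESeq2 1.42.0, unstranded counts, thinning, all 9 libraries, a replicate block and each library left out. The fit was also tested on simulated data, and the outcome of that is not reported here.

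Named genes were the 15 largest rises and 15 largest falls under all 5 scalings (at least 5 CPM in the higher group, no overlap, predicted genes left out), up to 4 per list and direction, a fixed set of pathway genes, and uncalled list members. Some genes that meet this rule are not reported here, though they remain in the counts. The question, lists and members were chosen with earlier results of these data known. Of the promoters fixed by rule, those of Slfn1, Serpina3g and Treml4 are not printed. Promoter sequences and positions are from RefSeq (GRCm38.p6), matched by symbol for 8127 of 10618 tested genes.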

Additional observations from a re-analysis of the deposited data

How the results depend on the processing

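Over 17 alternatives, 194 of 212 named genes that were called kept their call, and no rise or fall under all 5 scalings turned in the 12 settings where this was counted. Against 1995 higher and 1709 lower calls, library totals alone gave 1148 and 4895, upper-quartile factors gave 2698 lower, DESeq2 gave 1123 lower, and leaving out combined replicate 3, the deepest library, gave 1134 lower. Lower calls of at least 2-fold rose in number to 593 by the upper quartile and 1264 by library totals. With library totals alone 6 uncalled genes were called lower instead of slightly higher on the log2 scale: Ifnar2 -0.34, Il1b -0.29, Nfe2l2 -0.33, Pdia3 -0.33, Sod2 -0.38 and Tnks2 -0.31. That scaling does not correct for the share of counts that the rising genes take. Leaving out each library in turn gave 1729 to 2355 higher and 1134 to 1760 lower calls, 935 to 1048 and 345 to 407 of at least 2-fold, and 1026 to 1160 rises and 1080 to 1760 falls under all 5 scalings. In those fits 1008 to 1088 of the 1147 rises were called again under all 5 scalings. Of the 1602 falls, 1027 to 1373 were, the fewest without combined replicate 3. The cause of these differences was not tested. Same-numbered libraries did not deviate together (correlations 0.0037, 0.0064 and -0.0046), so no pairing by number was seen. With 3 libraries per group this cannot exclude that same-numbered libraries share a culture or litter. A replicate block gave 2005 higher and 1693 lower calls, and 1110 and 1598 under all 5 scalings. Genes with few counts, such as Ifnb1, could not be tested at this depth.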

Other observations

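The 3 libraries with IFN-α alone belong to no comparison above, and their levels are given as values with no test, with all 9 libraries scaled together. Isg15 was at 621 ± 21.8 CPM (SD, n = 3) with IFN-α alone, beside 22.1 ± 0.518 with R848 and 1089 ± 40.9 with both. Tap1 was at 400.3 ± 27.0 CPM with IFN-α alone, 30.8 ± 6.13 with R848 and 645 ± 37.3 with both. Il6 was at 13.7 ± 1.32 CPM with IFN-α alone, 126 ± 18.7 with R848 and 1509.9 ± 129 with both. Cxcl9 was at 58.8 ± 5.96 CPM with IFN-α alone, 2.29 ± 0.730 with R848 and 1359 ± 134 with both. Cxcl3 was at 0.491 ± 0.598 CPM with IFN-α alone, 128.5 ± 13.8 with R848 and 3.49 ± 0.708 with both. Of these 5 genes, the combined level was above the sum of the levels with each agent for Isg15, Tap1, Il6 and Cxcl9, and below the level with R848 for Cxcl3. These 5 are examples, and how other genes compare with that sum is not given here.
Actb, the cytoplasmic actin gene often used as a reference, had 5006, 4331 and 4067 CPM under R848 and 10257, 8432 and 8769 CPM under the combination, a rise of 1.03 ± 0.10 under all 5 scalings with no overlap between groups. It was named after its values were seen.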
